A study of Mus musculus with 4 samples.

Results

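Surfactant and lamellar body genes of the aged mouse lung are described here, 10 genes chosen by their symbols (Sftpc, Sftpb, Sftpa1, Sftpd, Abca3, Lamp3, Napsa, Slc34a2, Lpcat1 and Lyz1) out of the 31054 features of each count matrix. Each symbol had 1 row in each of the 4 matrices. Male C57BL/6 mice, aged 19 months at the start, received BPTES, a small-molecule inhibitor of glutaminase, or DMSO, the vehicle, for 1 month, with 2 libraries per group. The dose and the route are not given in the sources used here. Each library mixed 20000 sorted CD45- cells with 9000 sorted CD45+ cells of digested lung, so the sort as well as the tissue sets how many cells of a class a library holds. The labels do not say that the libraries of a group came from separate mice, and p-values measure only the spread between these libraries, which may be technical.

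Surfactant is a film of phospholipid and protein that lowers surface tension in the alveolus. Type 2 cells of the alveolar epithelium assemble it in the lamellar body, a lysosome-related organelle, and secrete it. Sftpb and Sftpc encode small hydrophobic proteins that spread the film, and Sftpa1 and Sftpd encode collectins, which also bind microbes. Abca3 encodes the transporter that loads phospholipid into the lamellar body, Lpcat1 an acyltransferase that makes its main lipid, Lamp3 a protein of the organelle's limiting membrane, and Napsa an aspartic protease that processes surfactant protein precursors. Slc34a2 encodes the phosphate transporter of the type 2 cell surface. Lyz1 encodes a lysozyme, and its neighbour Lyz2 encodes the lysozyme of macrophages and type 2 cells.

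In mm10, the build named in the submitters' processing notes, the gene annotation places the genes as follows. Sftpa1 (chr14:41131782-41136452), Sftpd (chr14:41172214-41185149) and Sftpc (chr14:70520949-70524081) share a chromosome. Sftpb lies at chr6:72304610-72314371, Abca3 at chr17:24351950-24410201, Lamp3 at chr16:19653378-19706375 and Napsa at chr7:44572380-44586862. Slc34a2 lies at chr5:53038081-53071664 and Lpcat1 at chr13:73467197-73516422. Lyz1 (chr10:117287797-117292868) and Lyz2 (chr10:117277331-117282321) are 5475 bp apart on the same strand. Their annotated transcripts were 92.0% identical over 1317 aligned columns, and 93.8% identical over the last 300 bases, where 3' libraries are read, so counts split between these paralogs are uncertain. Napsa and Slc34a2 each overlap an annotated antisense gene (Gm15396 and Gm17182), and the strand setting of the counting is not given in the sources used here.

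Promoter sequences of 7 of the 10 genes were in the RefSeq table of GRCm38.p6; those of Sftpc, Sftpd and Napsa were not. The first pair shown belongs to surfactant protein genes high only in type 2 cells and, at a lower level, secretory airway cells, and the second to Lyz1, which differed most between type 2 cells, and its paralog Lyz2. Each line is 250 bases before the RefSeq start, 5′ to 3′ on the gene's strand, and capitals mark the letters TCAAG or their reverse complement CTTGA, the core letters of sites for the lung epithelial factor NKX2-1 (chr6:72304360-72304609, plus strand; chr14:41131538-41131787, plus strand; chr10:117292869-117293118, minus strand; chr10:117282273-117282522, minus strand).
Sftpb: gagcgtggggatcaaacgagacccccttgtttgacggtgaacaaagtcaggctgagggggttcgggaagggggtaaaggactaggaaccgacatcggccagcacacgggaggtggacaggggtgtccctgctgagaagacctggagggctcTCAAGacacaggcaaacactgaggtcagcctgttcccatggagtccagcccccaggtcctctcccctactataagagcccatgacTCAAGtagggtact
Sftpa1: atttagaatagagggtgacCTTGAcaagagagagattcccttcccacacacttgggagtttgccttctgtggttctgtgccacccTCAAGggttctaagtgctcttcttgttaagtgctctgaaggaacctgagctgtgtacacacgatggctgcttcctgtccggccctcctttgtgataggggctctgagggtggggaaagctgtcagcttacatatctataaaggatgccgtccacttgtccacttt
Lyz1: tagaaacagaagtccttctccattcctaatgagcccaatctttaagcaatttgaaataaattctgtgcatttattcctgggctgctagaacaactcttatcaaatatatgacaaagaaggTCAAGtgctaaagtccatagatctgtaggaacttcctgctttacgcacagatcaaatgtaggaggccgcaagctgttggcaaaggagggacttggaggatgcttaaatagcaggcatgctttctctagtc
Lyz2: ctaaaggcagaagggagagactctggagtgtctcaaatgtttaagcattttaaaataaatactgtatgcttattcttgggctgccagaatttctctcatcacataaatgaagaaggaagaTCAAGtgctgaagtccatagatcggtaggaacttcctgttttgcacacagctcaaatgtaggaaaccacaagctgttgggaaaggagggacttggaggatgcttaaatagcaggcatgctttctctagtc
Searched on both strands, these 5 letters occurred 2 times in the Sftpb window, 2 times in that of Sftpa1, 1 time in those of Lyz1 and Lyz2 and 0 times in those of Abca3, Lamp3, Slc34a2 and Lpcat1. They occurred in 35.9% of 32851 RefSeq promoter windows of this length. The windows of Lyz1 and Lyz2 were 78.8% identical. A match or its absence describes these letters in this window.

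The next sequences contrast Abca3, which was detected in many classes of cells, with Lamp3, which outside the epithelium was near 0 (chr17:24351773-24352022, plus strand; chr16:19706366-19706615, minus strand). Here capitals mark CG dinucleotides.
Abca3: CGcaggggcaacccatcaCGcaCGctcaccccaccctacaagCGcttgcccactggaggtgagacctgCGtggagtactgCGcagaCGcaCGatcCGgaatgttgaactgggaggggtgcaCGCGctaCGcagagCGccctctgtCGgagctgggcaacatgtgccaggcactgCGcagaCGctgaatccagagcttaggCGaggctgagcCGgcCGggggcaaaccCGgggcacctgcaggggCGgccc
Lamp3: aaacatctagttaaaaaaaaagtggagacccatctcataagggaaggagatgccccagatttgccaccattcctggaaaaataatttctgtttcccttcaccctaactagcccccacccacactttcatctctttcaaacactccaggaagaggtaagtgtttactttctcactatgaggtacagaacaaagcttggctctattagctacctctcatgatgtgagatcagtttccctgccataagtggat
Abca3 had 21 CG dinucleotides in its window and Lamp3 had 0, against a median of 6 over all windows. Lpcat1, also widely detected, had 16, and the type 2 restricted genes Sftpb and Sftpa1 had 7 and 3. Slc34a2 and Lyz1 did not follow that split. Slc34a2 had 28 (its RefSeq start used here lies inside the annotated gene) and a relative level outside the epithelium as low as that of Sftpb, and Lyz1 had 2, although it reached a mean of 14.5% of its AT2-like level in a non-epithelial class.

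Class names were rebuilt from marker genes that include none of the 10 genes, and end in "-like" for that reason. The 4 libraries held 260346570 to 342107092 UMIs (unique molecular identifiers, each counting a captured RNA molecule once). After filtering, 63895 cells remained, 14407 to 18860 per library, of which 17347 lay in clusters left unnamed. Type 2 (AT2-like) cells numbered 390 and 394 with BPTES and 117 and 237 with DMSO, and they were deep, with medians of 43815 to 47685 UMIs per cell against 13996 to 15881 over all kept cells. They expressed all 8 of the markers fixed for them. Pairs of libraries shared 56 to 93 kept cell barcodes, and a single pair shared 1 AT2-like barcode.

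The 10 genes took up a large part of the RNA molecules counted in AT2-like cells. Their summed share of UMIs was 21.9% and 21.4% with BPTES and 21.3% and 21.9% with DMSO. Sftpc alone reached 168919 and 166303 CPM with BPTES and 165802 and 170349 CPM with DMSO (CPM: counts per 1000000 UMIs summed over the cells of the class in a library). UMIs count RNA molecules from their 3' ends, and these levels were not divided by gene length. The annotated genes span 3133 bp (Sftpc) to 58252 bp (Abca3), and whether length bears on the levels was not tested. Cells differed little in the total: over the 4 libraries, the 10th percentile of AT2-like cells lay at 15.1% to 17.2% of UMIs, and the 90th percentile at 25.2% to 26.2%. Of all UMIs of the 10 genes in a library's kept cells, 94.8% to 96.9% were in AT2-like cells.

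Among the surfactant proteins, the order of levels in AT2-like cells was Sftpc, Sftpa1, Sftpb and Sftpd, and it was the same in each of the 4 libraries. Sftpa1 had 23128 and 21347 CPM with BPTES and 21623 and 22588 with DMSO. Sftpb had 11361 and 11310 CPM with BPTES and 11329 and 11156 with DMSO. Sftpd had 4671 and 4132 CPM with BPTES and 3915 and 4069 with DMSO, so that both BPTES libraries lay above both DMSO libraries.

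The genes of the lamellar body and of lipid and phosphate handling were lower. Slc34a2 had 3580 and 3271 CPM with BPTES and 3216 and 3352 with DMSO. Lamp3 had 2312 and 2169 CPM against 1906 and 2052, and Napsa 1928 and 1992 against 2041 and 1947. The ranges of Lamp3 and Napsa overlap over the 4 libraries, so their order is not set beyond that spread. Lpcat1 had 1465 and 1438 CPM with BPTES and 1431 and 1388 with DMSO. Abca3, the lowest in 3 of 4 libraries, had 737 and 723 CPM with BPTES and 704 and 707 with DMSO.

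**Figure D1:**
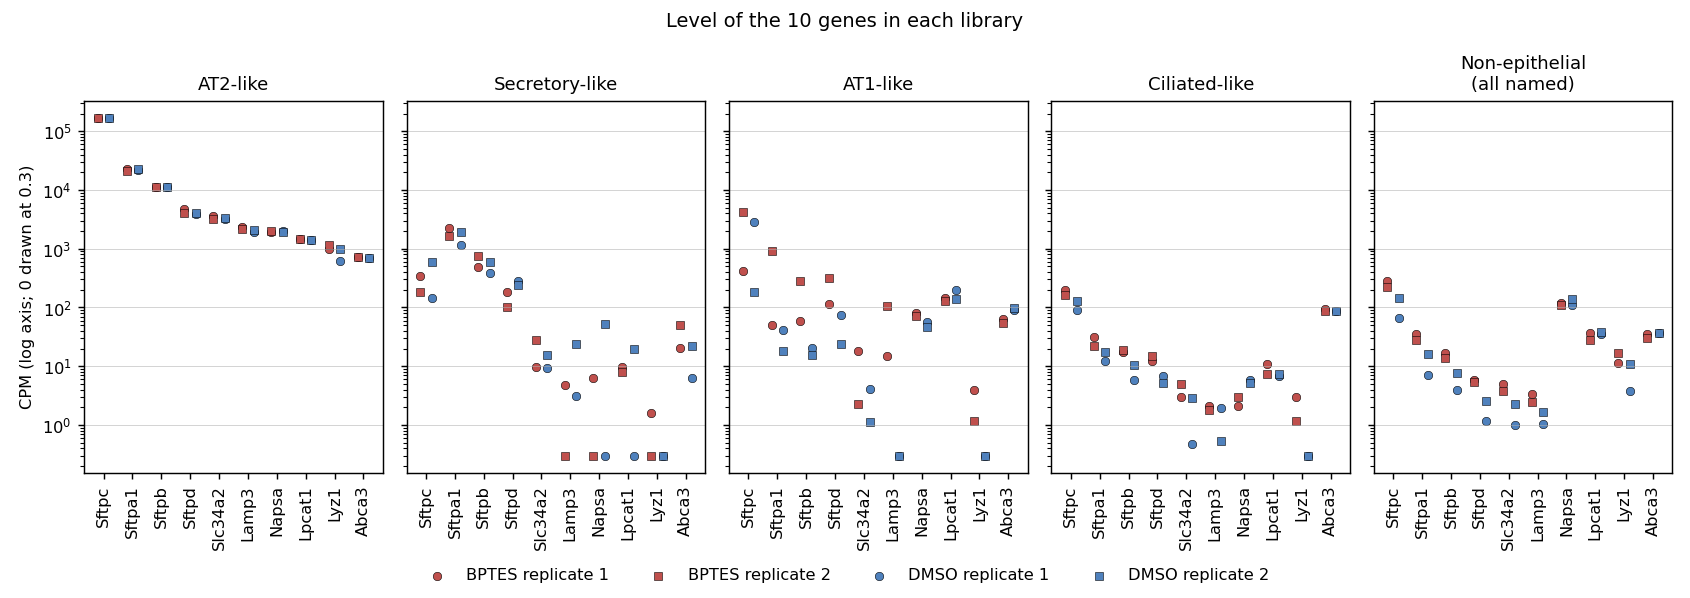
CPM of the 10 genes (log axis, 0 drawn at 0.3) per library in 5 groups of cells, with red points for BPTES, blue points for DMSO, circles for replicate 1 and squares for replicate 2. In AT2-like cells the libraries coincide for most genes and Lyz1 is spread from 611 to 1171 CPM; in non-epithelial cells Sftpc, Sftpa1, Sftpb, Sftpd, Slc34a2 and Lamp3 are lowest in DMSO replicate 1.

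Lyz1 differed from the other genes in how its RNA was spread between type 2 cells. Its level over all AT2-like cells was 1009 and 1171 CPM with BPTES and 611 and 1002 with DMSO. The 10% of cells richest in it held 97.4% to 98.6% of its UMIs in every library, whereas for the other 9 genes and Lyz2 that share lay between 14.7% (Sftpc) and 22.7% (Sftpd). Cells with at least 1000 CPM of Lyz1, a limit set after the values were seen, numbered 22 of 390 (5.64%, 95% exact binomial interval 3.57% to 8.42%), 39 of 394 (9.90%, 7.13% to 13.3%), 11 of 117 (9.40%, 4.79% to 16.2%) and 24 of 237 (10.1%, 6.60% to 14.7%) in BPTES replicates 1 and 2 and DMSO replicates 1 and 2. These intervals cover counting error only, and they overlap between all 4 libraries. Within such cells the median level of Lyz1 was 15978 and 8516 CPM with BPTES and 4675 and 5598 with DMSO. The cells below the limit had 22.7 to 32.2 CPM, with 18, 12, 3 and 7 cells between 100 and 1000 CPM and 196, 217, 73 and 124 cells at 0 UMIs.

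The cells rich in Lyz1 had means near those of the other cells for the genes of surfactant. The ratio of the mean level in these cells to that in the other AT2-like cells of the library lay between 0.909 (Sftpb, DMSO replicate 1) and 1.28 (Slc34a2, DMSO replicate 1) over the 9 other genes and 4 libraries. For Lyz2 the mean was 23642 against 31602 CPM and 23764 against 31689 CPM with BPTES and 27747 against 28775 CPM and 22309 against 30422 CPM with DMSO, lower in the Lyz1-rich cells of all 4. These contrasts have no test, because the cells were chosen after their values were seen, and the identity of the paralogs' 3' ends bears on both values.

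**Figure D2:**
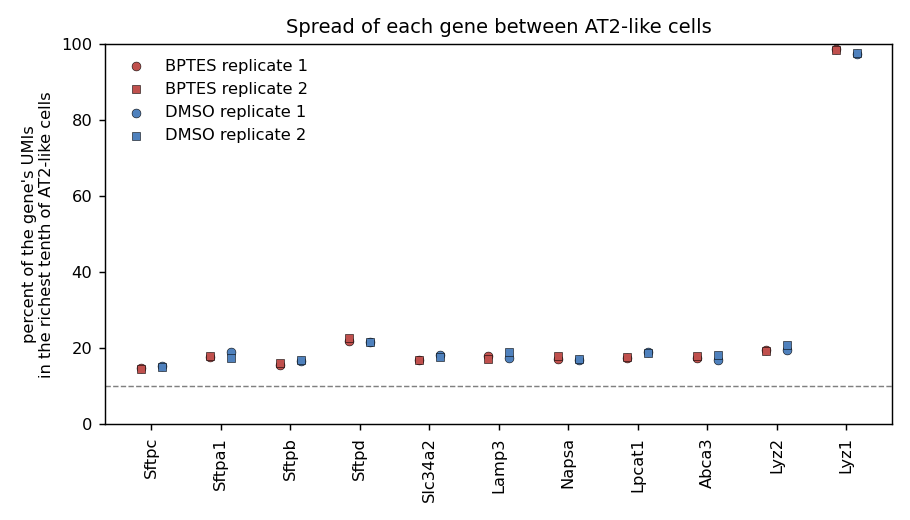
Percent of each gene's UMIs held by the 10% of AT2-like cells richest in it, per library (red BPTES, blue DMSO, circles replicate 1, squares replicate 2), with the dashed line at the value of a gene spread evenly. All genes lie between 14.7% and 22.7% except Lyz1, at 97.4% to 98.6%.

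In airway cells the collectins and Sftpb stood out. Secretory-like cells, the club-type cells of the airway, were few, with 21 and 25 cells (BPTES) and 19 and 26 cells (DMSO), and were separated from AT1-like cells only at clustering resolution 2, so their values are levels without a fitted test. Sftpa1 had 2274 and 1677 CPM with BPTES and 1164 and 1942 CPM with DMSO, which is 5.38% to 9.83% of its level in AT2-like cells of the same library. Sftpb had 494 and 765 CPM and 385 and 589 CPM (3.40% to 6.76%), and Sftpd had 183 and 100 CPM and 284 and 245 CPM (2.42% to 7.25%). The groups overlapped for Sftpa1 and Sftpb, and for Sftpd both BPTES libraries lay below both DMSO libraries, as for 1005 of the 9148 genes with at least 10 UMIs in these cells. A few cells carried much of this: the 2 richest cells of each library held 50.1% to 61.4% of the Sftpa1 UMIs, and without them Sftpa1 was still at 604 to 1275 CPM.

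Most of the remaining genes were low in Secretory-like cells. Abca3 was an exception, at 0.895% to 7.06% of its AT2-like level, a range that overlaps those of Sftpb and Sftpd. It rested on 51 UMIs over the 4 libraries. Napsa reached 24 UMIs in DMSO replicate 2, against 4 in BPTES replicate 1. Sftpc was at 0.0875% to 0.343% of its AT2-like level there, Slc34a2 at 0.267% to 0.840%, and Lyz1 had 1 UMI in BPTES replicate 1 and 0 in the other libraries. Among the 6 genes restricted to type 2 cells and airway (Sftpc, Sftpb, Sftpa1, Sftpd, Slc34a2 and Lamp3), Sftpa1 thus gave 62.4% of the summed UMIs and Sftpc 11.05%, whereas in AT2-like cells Sftpc gave 79.5% and Sftpa1 10.5%. After each cell had been thinned to 3000 UMIs, 45.5% to 75.0% of Secretory-like cells kept a UMI of Sftpa1, against 2.68% to 7.87% of alveolar fibroblast-like cells, which should lack it. Without thinning these shares were 68.4% to 80.95% and 11.5% to 41.3%, at median depths of 9740 to 26467 and 19801 to 22499 UMIs per cell. In each library 0 to 4 Secretory-like cells and 12 to 36 alveolar fibroblast-like cells were too shallow for thinning. The 4 airway markers of Secretory-like cells summed to 465170 to 533860 CPM, and the 8 type 2 markers to 561 to 1112 CPM. The 4 endothelial markers summed to 89.3 and 363 CPM with BPTES and 22.1 and 355 CPM with DMSO. The 9 lymphocyte markers summed to 9.57 and 35.3 CPM against 12.6 and 335 CPM, and the 4 fibroblast markers to 171 and 332 against 233 and 173. Their part in the levels was not tested.

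Ciliated-like cells, with 68 to 146 cells per library, carried Abca3 and little else of this group. Abca3 had 92.9 and 87.1 CPM with BPTES and 86.5 and 86.3 CPM with DMSO, 12.1% to 12.6% of its AT2-like level. After thinning to 3000 UMIs, 14.7% to 26.0% of Ciliated-like cells kept a UMI of Abca3, against 0.488% to 1.78% of natural killer (NK)-like cells, the class with the lowest level of it. Without thinning these shares were 83.3% to 90.4% and 0.930% to 6.86%, at median depths of 29064 to 36800 and 12544 to 13748 UMIs per cell. Sftpd was at 12.1 and 14.7 CPM against 6.69 and 5.24 CPM, a mean of 0.229% of its AT2-like level, and Sftpc, Sftpb and Sftpa1 at means of 0.0865%, 0.118% and 0.0945%. Lyz1 had 0 UMIs in both DMSO libraries, where 3 UMIs, the limit that a count of 0 allows, would be 1.43 and 0.787 CPM, and 2.96 and 1.18 CPM with BPTES. For 6 of the 8 genes that passed the filter on low counts both BPTES libraries lay above both DMSO libraries, as for 18.6% of all genes tested, and for 1, Napsa, both lay below (20.3%). Sftpc, with 199 and 163 CPM against 90.3 and 128 CPM, had a log2 fold change of 0.70 (95% interval 0.35 to 1.05). The means of Sftpc, Sftpb and Sftpa1 in this class lay near their medians over 22 non-epithelial classes, 0.107%, 0.0975% and 0.0982%. For these genes that level is read below as background, from which own expression of the ciliated cells cannot be told apart. The mean of Sftpd, 0.229%, lay above its median over those classes, 0.0835%, and below the 0.366% of alveolar macrophage-like cells. Sftpd made up 5.12% of the summed UMIs of the 6 restricted genes in this class, against 2.03% in AT2-like cells. Sftpb made up 7.17% against 5.35%. Own expression of Sftpd in ciliated cells was not tested. Some markers of other cells also differed between the groups in this class. The 4 airway markers summed to 3992 and 4283 CPM against 3219 and 3692 CPM, the 4 fibroblast markers to 61.2 and 35.7 CPM against 143 and 104 CPM, and the 9 lymphocyte markers to 6.80 and 10.01 CPM against 10.03 and 23.1 CPM. The groups overlapped for the myeloid, endothelial and AT1 markers, the 8 type 2 markers summed to 273 and 261 CPM against 272 and 289 CPM, none of these markers was at 0, and their part in the values was not tested. None of the 8 genes that passed the filter on low counts was called between the groups by edgeR, as were 0 of all 12013 genes tested (0%), although 970 had a raw p under 0.05. DESeq2 called 1 of the 10 genes, beside 0.0916% of all genes.

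AT1-like cells, the flat gas-exchange cells, carried Lpcat1 and Abca3, at medians of 2930 to 5876 UMIs per cell. Lpcat1 had 147 and 130 CPM with BPTES and 198 and 141 CPM with DMSO, a mean of 10.8% of its AT2-like level, and Abca3 had 64.5 and 53.9 CPM against 90.6 and 99.7 CPM, also a mean of 10.8%. In DMSO replicate 1, 2 cells held 66.7% of the 48 Lpcat1 UMIs, and without them Lpcat1 was at 89.3 CPM there. For Abca3 both BPTES libraries lay below both DMSO libraries, as for 14.1% of the 11779 genes with at least 10 UMIs in these cells. The cells numbered 97 and 57 against 33 and 72, and no fit was made. Sftpc ranged from 181 to 4190 CPM in these cells, with 425 and 4190 CPM (BPTES) and 2835 and 181 CPM (DMSO). In the 2 libraries with high values, 2 cells held 95.7% (BPTES replicate 2) and 96.2% (DMSO replicate 1) of the Sftpc UMIs, and without them Sftpc was at 198 and 145 CPM. The 4 endothelial markers summed to 620 and 881 CPM against 276 and 792 CPM, and 4 fibroblast markers to 164 and 761 against 103 and 795. Lymphocyte (65.3 and 369 against 20.6 and 47.0) and type 2 markers (94.1 and 108 against 90.6 and 32.5) were higher in both BPTES libraries. The 4 AT1 markers (17106 and 15971 against 20050 and 17980) were lower in both. Myeloid and airway markers overlapped, and the part of these markers was not tested.

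Outside the epithelium the genes fell into a restricted and a broad set. Free RNA from broken cells enters all droplets and gives UMIs of a gene in cells that do not express it, so a low level that is alike in all classes is read here as background. Over 22 non-epithelial classes with cells in every library, the mean level relative to AT2-like cells had a median of 0.107% for Sftpc, 0.0975% for Sftpb, 0.0982% for Sftpa1, 0.0835% for Sftpd, 0.0875% for Slc34a2 and 0.101% for Lamp3. Alveolar macrophage-like cells had the highest such level of Sftpc (0.270%), Sftpb, Sftpa1 and Sftpd (0.366%), and that rested on BPTES replicate 2, where 2 cells held 91.2% of the Sftpc UMIs. In conventional dendritic 2-like cells, Sftpc likewise had 929 CPM in BPTES replicate 1 and 51.1 to 157 CPM in the other libraries.

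These 6 genes kept the proportions of type 2 cells in nearly every class. Sftpc made up 79.5% of their summed UMIs in AT2-like cells and 77.7% to 83.2% in the non-epithelial classes with over 100 such UMIs, and Sftpa1 10.5% and 8.48% to 13.3%. Lamp3 departed furthest in B-like cells, where it made up 2.52% of the sum against 1.03% in AT2-like cells. It made up 0% of 275 UMIs in Cycling-like cells, 1.86% of 323 UMIs in Platelet-like cells and 1.80% in conventional dendritic 1-like cells. That last share rested on few cells: in BPTES replicate 1, 2 cells held 84.3% of the 51 Lamp3 UMIs and 69.7% of the Sftpc UMIs, and without them Lamp3 was at 2.01 CPM there. In B-like cells Lamp3 had 6.90 and 5.49 CPM with BPTES and 5.27 and 5.07 CPM with DMSO, 0.269% of its AT2-like level, and unlike Sftpc (304 and 230 CPM against 84.0 and 176 CPM) it varied little between the libraries. Lamp3 is also known as a marker of mature dendritic cells, and no cluster was named for these.

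Napsa, Abca3 and Lpcat1 were above that background in many classes, and Lyz1 in few, with a median of 0.129% of its AT2-like level over the non-epithelial classes. By a limit of 5 times the median relative level of the 10 genes in a class, Abca3 stood out in 20 non-epithelial classes, Lpcat1 in 20, Napsa in 12 and Lyz1 in 4, and none of the other 6 genes in any. Some of these rest on few UMIs over the 4 libraries. Napsa had 49 in Platelet-like and 38 in Cycling-like cells, Abca3 had 36 and 23, and Lpcat1 had 39 and 44. Lpcat1 in Mesothelial-like cells was at 0 CPM in its lowest library, and Napsa in T-like cells passed the limit at 5.02 times. Napsa was led by monocytes, dendritic cells and B cells. It had 582 and 511 CPM with BPTES and 580 and 642 CPM with DMSO in non-classical monocyte-like cells, 29.3% of its AT2-like level. In classical monocyte-like cells Napsa had 471 and 458 CPM against 504.3 and 565 CPM, in conventional dendritic 2-like cells 472 and 435 CPM against 585 and 526 CPM, and in B-like cells 363 and 347 CPM against 367 and 430 CPM. Both BPTES libraries lay below both DMSO libraries in classical monocyte-like, conventional dendritic 2-like and B-like cells, as did 28.2%, 23.0% and 22.3% of all genes in these classes, and Napsa was called in none of the classes fitted.

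Abca3 was highest outside the epithelium in lymphatic endothelial-like cells, with 110 and 110 CPM (BPTES) and 124 and 130 CPM (DMSO), 16.6% of its AT2-like level. Aerocyte endothelial-like cells, of the capillaries facing the airspace, followed (9.16%), and NK-like cells had the least, 0.582%. Lpcat1 was led by general capillary endothelial-like cells, with 86.1 and 76.3 CPM against 89.5 and 95.6 CPM (6.08%), and by conventional dendritic 1-like cells (5.64%). Lyz1 was found in interstitial macrophage-like cells (98.7 and 151 CPM with BPTES, 41.5 and 285 CPM with DMSO) and in classical monocyte-like, conventional dendritic 1-like and non-classical monocyte-like cells. In interstitial macrophage-like cells it was again held by few cells: the 2 richest held 31.8% to 91.5% of the Lyz1 UMIs of a library. Lyz2, in contrast, reached a mean of 59.4% of its AT2-like level in classical monocyte-like cells.

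**Figure D3:**
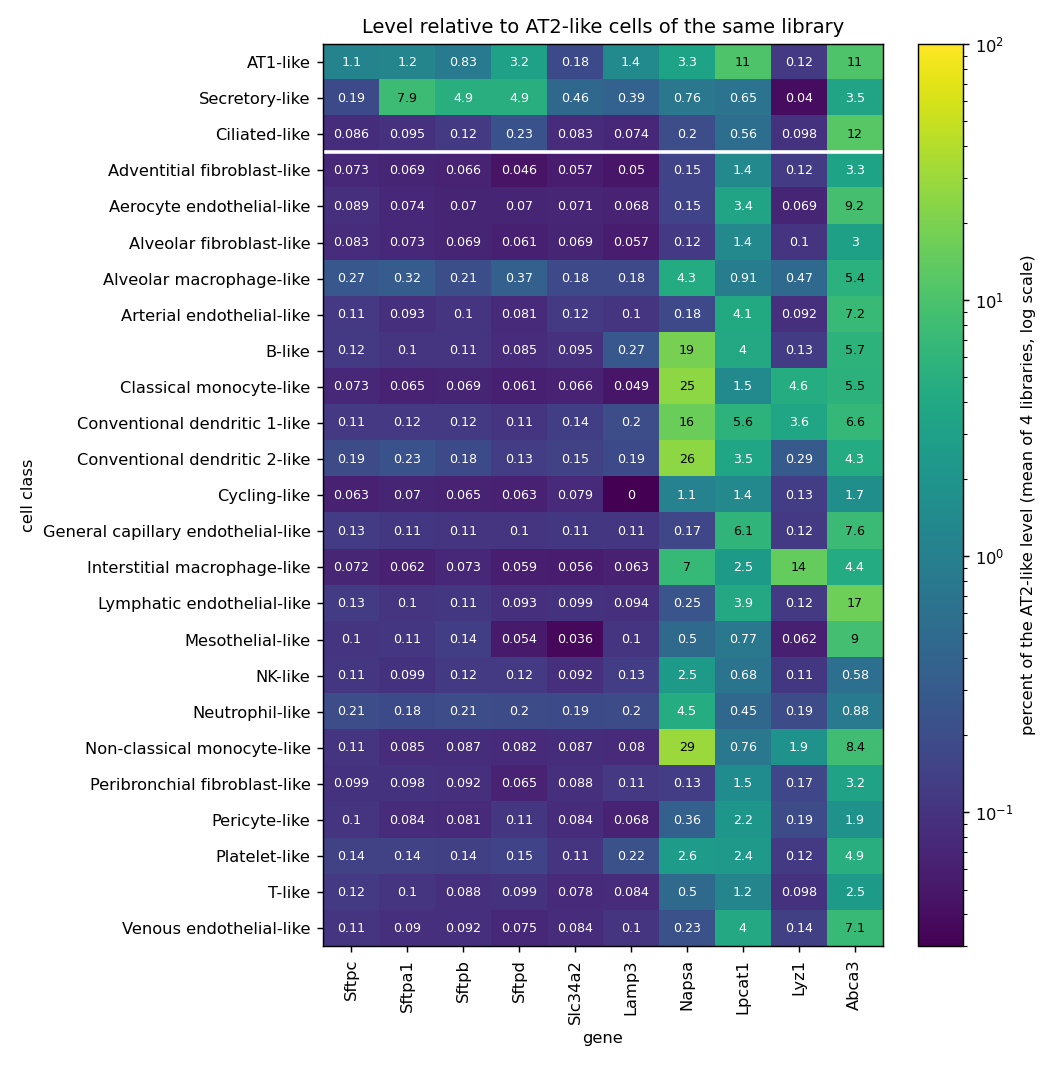
Level of each gene in 22 non-epithelial and 3 epithelial classes as a percent of its level in AT2-like cells of the same library (mean of 4 libraries, log color scale). The columns of Sftpc, Sftpa1, Sftpb, Sftpd, Slc34a2 and Lamp3 stay between 0 and 0.366% below the white line, while Abca3 reaches 16.6%, Napsa 29.3% and Lyz1 14.5%.

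Genes outside the group with the most similar profile over 27 named classes were Slc26a4 (Pearson r = 0.945 with the mean log2 profile of the 10 genes), Tinag (0.944), Mlc1 (0.938), Myh7 (0.931) and Spink5 (0.929). For single genes, the most similar were Mlc1 for Sftpc (0.9751), Cxcl15 for Sftpb (0.974) and Sftpa1 (0.962), Mbl1 for Slc34a2 (0.964), Sfta2 for Sftpd (0.946) and Tinag for Lamp3 (0.944). The broad genes had looser matches: Taok3 for Napsa (0.839), Secisbp2l for Lpcat1 (0.825), Yae1d1 for Abca3 (0.825) and Gm44751 for Lyz1 (0.810). The points share their libraries, and free RNA of AT2-like cells adds to every gene restricted to them.

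The comparison of BPTES with DMSO asked whether type 2 cells of the treated lungs differed in these genes. None of the 10 genes was called in AT2-like cells (edgeR's quasi-likelihood test, Benjamini-Hochberg adjusted p from 0.272 to 0.902), beside 13 of 13020 genes tested (0.0998%), 1 higher and 12 lower with BPTES. Adjusted p-values below are from the same test unless another tool is named. The log2 fold changes of BPTES over DMSO lay between 0.03 (Napsa) and 0.48 (Lyz1), with a median of 0.10 against -0.0029 over all genes tested. They were above 0 for all 10 genes in each alternative that was run, although on plain CPM, without edgeR's TMM scaling, the mean of Sftpc was lower with BPTES (167611 ± 1850 against 168075 ± 3215, SD, n = 2 each), as was that of Napsa. Some alternatives held the same 1138 AT2-like cells and so repeat the main fit of this class. They were resolutions 0.5 and 2, seeds 1 and 2, and the 10 genes and Lyz2 left out of the variable genes. For Sftpc the log2 fold change was 0.05 with a 95% interval of -0.25 to 0.35, and for Sftpb 0.07 with an interval of -0.14 to 0.28. The intervals of Abca3 (-0.06 to 0.27), Lpcat1 (-0.07 to 0.27), Slc34a2 (-0.09 to 0.32) and Sftpa1 (-0.18 to 0.31) also include 0.

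Lamp3 and Lyz1 had a raw p under 0.05, as did 1926 of all 13020 genes tested (14.8%). Lamp3 had a log2 fold change of 0.23 (SE 0.0870, adjusted p = 0.272), with 2241 ± 101 CPM against 1979 ± 103 CPM (SD, n = 2 each). Lyz1 had a log2 fold change of 0.48 (SE 0.204, adjusted p = 0.325), with 1090 ± 115 CPM against 806 ± 277 CPM. Lyz1 was the single one of the 10 genes to be called when a library was left out, without DMSO replicate 2 (log2 fold change 0.92, adjusted p = 0.00264, beside 2.35% of all genes), and DMSO replicate 1 was the library with 611 CPM. Without DMSO replicate 1 its log2 fold change was 0.15 (adjusted p = 0.603). Both BPTES libraries lay above both DMSO libraries in plain CPM for 5 of the 10 genes (Sftpd, Lamp3, Lpcat1, Abca3 and Lyz1), as for 16.1% of all genes tested, and below for 0, against 30.8%. The share of UMIs from all 10 genes differed by 0.0889 percentage points (21.6% ± 0.371 against 21.6% ± 0.426, SD, n = 2 each; two-sided exact permutation test, p = 0.667, smallest possible 0.333).

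Markers of other cell types were present in AT2-like cells, and some of the marker sets differed between the groups. The summed level of 9 lymphocyte markers was 28.7 and 26.4 CPM with BPTES and 67.2 and 53.5 CPM with DMSO, and that of 4 endothelial markers 22.2 and 25.5 CPM against 56.9 and 40.01 CPM, with none of them at 0. The 5 myeloid markers summed to 25.8 and 37.3 CPM against 468 and 46.2 CPM, high in DMSO replicate 1. The 4 fibroblast markers summed to 34.3 and 49.4 CPM against 75.9 and 49.96 CPM, with both replicates numbered 2 nearly equal. The 4 airway markers, at 741 and 1073 CPM against 1352 and 754 CPM, overlapped between the groups, and the 4 AT1 markers, at 745 and 761 CPM against 686 and 697 CPM, were higher in both BPTES libraries. The 8 type 2 markers summed to 18423 and 18127 CPM with BPTES and 14923 and 17650 CPM with DMSO. Their part in the values above was not tested. Leaving out barcodes with at least 2 UMIs of lymphocyte, myeloid or endothelial markers (Lyz2 not counted, a choice made after seeing the data) kept only 121 and 94 cells with BPTES and 19 and 32 with DMSO. In that fit, which called 0.0299% of all genes and 0 of the 10, the log2 fold change was 0.06 for Sftpc, 0.26 for Lamp3 and 0.82 for Lyz1, against 0.05, 0.23 and 0.48 with all cells.

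**Figure D4:**
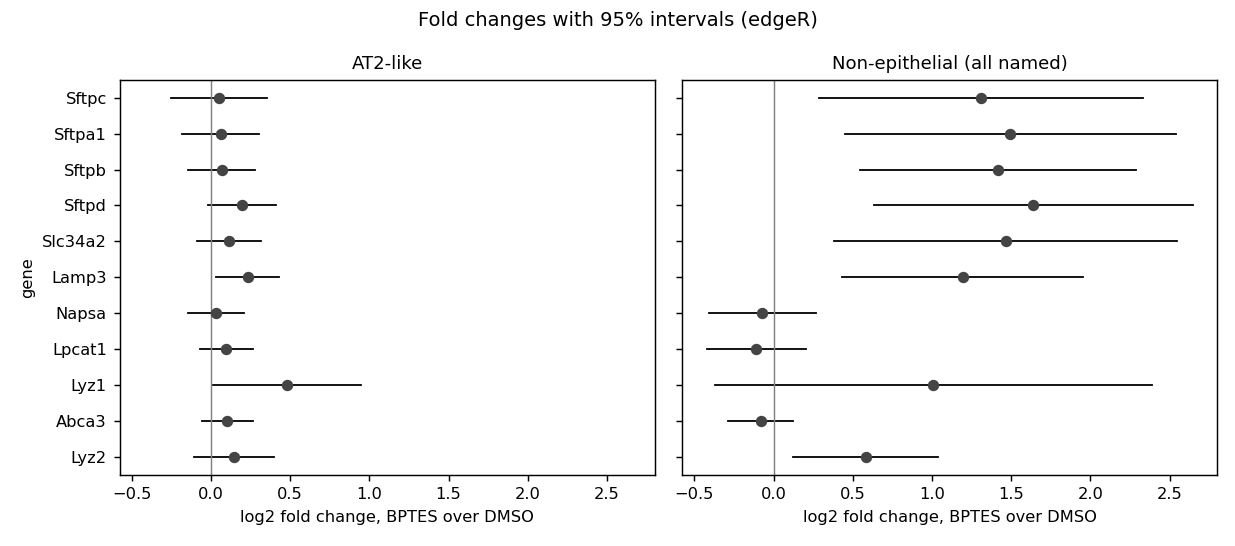
Log2 fold change of BPTES over DMSO (points) with 95% intervals (lines) from edgeR for the 10 genes and Lyz2 in AT2-like cells and in the sum of all named non-epithelial cells. The AT2-like values lie between 0.03 and 0.48; in non-epithelial cells Sftpc, Sftpa1, Sftpb, Sftpd, Slc34a2 and Lamp3 lie between 1.19 and 1.64.

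Other genes of surfactant metabolism and its regulators in AT2-like cells, in lists of 64 genes, gave no call either. Of 20 genes of surfactant lipid synthesis, 0 were called higher and 0 lower, with a median log2 fold change of 0.04. The most abundant were Scd1, a fatty acid desaturase (3726 and 3589 CPM with BPTES, 3102 and 3701 with DMSO), and Fabp5, a fatty acid carrier (1170 and 1231 CPM, 1103 and 1348). Of 19 tested genes of protein processing and lamellar body traffic, 0 were called (median 0.05), led by the cathepsins Ctsc (869 and 897 CPM, 762 and 844) and Ctsh (611 and 685 CPM, 644 and 585). Of 7 tested genes of pool size, recycling and clearance, 0 were called (median 0.12). There Adgrf5, the receptor that limits the surfactant pool, had 437 and 436 CPM with BPTES and 477 and 439 with DMSO, and Prdx6, a peroxiredoxin with phospholipase activity, had 334 and 361 CPM and 336 and 299.

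The 15 alveolar transcription factors had 0 calls and a median of -0.04, with Etv5 at 409 and 423 CPM against 449 and 451 and Stat3 at 365 and 374 CPM against 498 and 472. The gene of these lists nearest to a call, named after its values were seen, was Insig1, a sterol-regulated brake on lipid synthesis (99.1 and 98.0 CPM with BPTES, 146 and 139 with DMSO, log2 fold change -0.48, adjusted p = 0.0504). It was called by DESeq2 (adjusted p = 0.00211) and without DMSO replicate 2 (adjusted p = 0.0255). In a list of 15 genes of type 2 cell state, 14 were tested, 1 was called higher and 0 lower, beside 0.0998% of all genes called. The log2 fold changes of these 14 genes ranged from -0.43 to 0.91, with a median of 0.25. A raw p under 0.05 was found for 8 of them, against 14.8% of all genes tested. The list was chosen with earlier results of these data known. The called gene was Il33, an alarmin cytokine (549 and 533 CPM against 322 and 337, log2 fold change 0.77, adjusted p = 0.0140), which lost its call with doublets kept (log2 fold change 0.73, adjusted p = 0.0686, in a fit that called 0 of 14055 genes). It also lost it in the fit without barcodes carrying markers of other cells, which kept 19 to 121 cells per library (log2 fold change 0.58, adjusted p = 0.289). The most abundant of that list, Cxcl15 and Chil1, had log2 fold changes of 0.18 and 0.32 (adjusted p = 0.577 and 0.241).

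Outside the epithelium, the RNA of the restricted genes was higher in both BPTES libraries. In the sum of all named non-epithelial cells Sftpc had 282 and 224 CPM with BPTES and 65.4 and 146 CPM with DMSO. Sftpa1 had 35.5 and 28.03 CPM against 7.10 and 16.2, Sftpb 16.6 and 13.7 against 3.94 and 7.73, and Sftpd 5.88 and 5.31 against 1.15 and 2.55. Slc34a2 had 4.97 and 3.82 CPM against 1.00 and 2.28, and Lamp3 3.41 and 2.49 against 1.02 and 1.64. None was called: the log2 fold changes of these 6 genes were 1.19 to 1.64 with adjusted p-values of 0.303 to 0.318, beside 0 calls among 20549 genes (0%; 2922 genes had a raw p under 0.05). For 7 of the 10 genes both BPTES libraries lay above both DMSO libraries, as for 16.9% of all genes, and for 1, Abca3, both lay below (35.0%). DESeq2 called Sftpb, Sftpd, Slc34a2 and Lamp3, beside 656 of all genes (3.19%), and without DMSO replicate 2 edgeR called 5 of the 10 genes, beside 0.716% of all genes. The DMSO libraries themselves differed, with Sftpc in replicate 2 more than 2 times its level in replicate 1.

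The broad genes had fold changes near 0 in the same sum. Abca3 had 35.7 and 30.7 CPM with BPTES and 36.2 and 36.6 CPM with DMSO, Lpcat1 36.5 and 28.5 against 35.1 and 37.6, and Napsa 120 and 109 against 110 and 139. Their log2 fold changes were -0.08, -0.11 and -0.07, with 95% intervals of -0.29 to 0.12, -0.42 to 0.21 and -0.41 to 0.27. Lyz1, with own expression in some myeloid classes, had 11.4 and 17.0 CPM against 3.75 and 10.8 (log2 fold change 1.01, interval -0.37 to 2.39), and Lyz2 2709 and 2865 CPM against 1631 and 2239 (0.58, adjusted p = 0.318). The sum pools classes whose cell numbers differed between the libraries. Interstitial macrophage-like cells numbered 239 and 298 with BPTES against 96 and 180, and B-like cells 715 and 620 against 1390 and 1610. For genes with own expression in such classes, class make-up and level per cell cannot be told apart in the sum. In the 18 other classes that had 50 or more cells per library, both BPTES libraries lay above both DMSO libraries for Sftpc in 16 classes, for Sftpb in 16, for Sftpa1 in 17 and for Sftpd in 17, as in 19.3% of all gene and class pairs tested. They did so for Lamp3 in 13 of the 14 classes in which it passed the filter on low counts, for Slc34a2 in 13 of 16 and for Lyz1 in 10 of 12. None of these 7 genes had both BPTES libraries below both DMSO libraries in any of these classes, against 24.6% of all pairs. The classes share the 4 libraries and each library's free RNA, so they are not independent comparisons. A gene passes the filter on low counts by reaching its limit in 2 libraries, so a pair could pass through BPTES alone. Lamp3 in neutrophil-like cells, for example, had 24 and 51 UMIs with BPTES and 1 and 9 UMIs with DMSO. For such pairs the filter partly set the order of the groups. Abca3 was above in 4 and below in 7 of 18 classes, Lpcat1 above in 3 and below in 6 of 18, and Napsa above in 3 and below in 6 of 17.

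Across the 4 libraries, the level outside the epithelium had the same order as the share of type 2 RNA in the library. AT2-like cells held 6.66% and 6.48% of the kept UMIs with BPTES and 2.27% and 3.34% with DMSO. The summed level of the 6 restricted genes in non-epithelial cells was 349 and 277 CPM against 79.6 and 176 CPM (313 ± 50.8 against 128 ± 68.1, SD, n = 2 each; ratio 2.45; two-sided exact permutation test, p = 0.333, the smallest possible). DMSO replicate 2 weighed on this ratio, which was 3.93 without it and 1.78 to 2.73 without another library. Per percent of the library's UMIs in AT2-like cells it was 52.4 and 42.7 CPM against 35.0 and 52.7 CPM, and there the groups overlapped (ratio 1.08, exact permutation test, p = 1.00). The ratio of the plain levels was 2.999 in the 12 classes positive for Ptprc, the gene of CD45 (410 and 365 CPM against 83.1 and 175), and 2.06 in the 11 negative ones (309 and 215 CPM against 77.7 and 176); without DMSO replicate 2 these ratios were 4.66 and 3.38. Few cells made up that gap: in the CD45+ classes the 2 cells of each class richest in the 6 genes held 30.7% and 41.7% of their UMIs with BPTES and 4.97% and 3.37% with DMSO. Without these cells, a choice made after seeing the data, the CD45+ levels were 287 and 215 CPM against 80.1 and 171 CPM, a ratio of 2.004, and the CD45- ratio was 2.08; leaving out DMSO replicate 2 as well gave 3.14 and 3.43. Per percent of UMIs in AT2-like cells, the CD45+ value was 61.5 and 56.4 CPM against 36.6 and 52.5 with all cells (ratio 1.32, exact permutation test, p = 0.333, the smallest possible), where the groups did not overlap, and 43.2 and 33.2 against 35.3 and 51.1 without those cells, where the groups overlapped. The CD45- value overlapped with all cells (46.4 and 33.2 against 34.2 and 52.8). Over all non-epithelial classes, the summed level without the richest cells was 299 and 214 CPM against 77.2 and 173 CPM, a ratio of 2.05 (3.32 without DMSO replicate 2). More type 2 cells in a suspension and more RNA lost per type 2 cell cannot be told apart in these values.

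**Figure D5:**
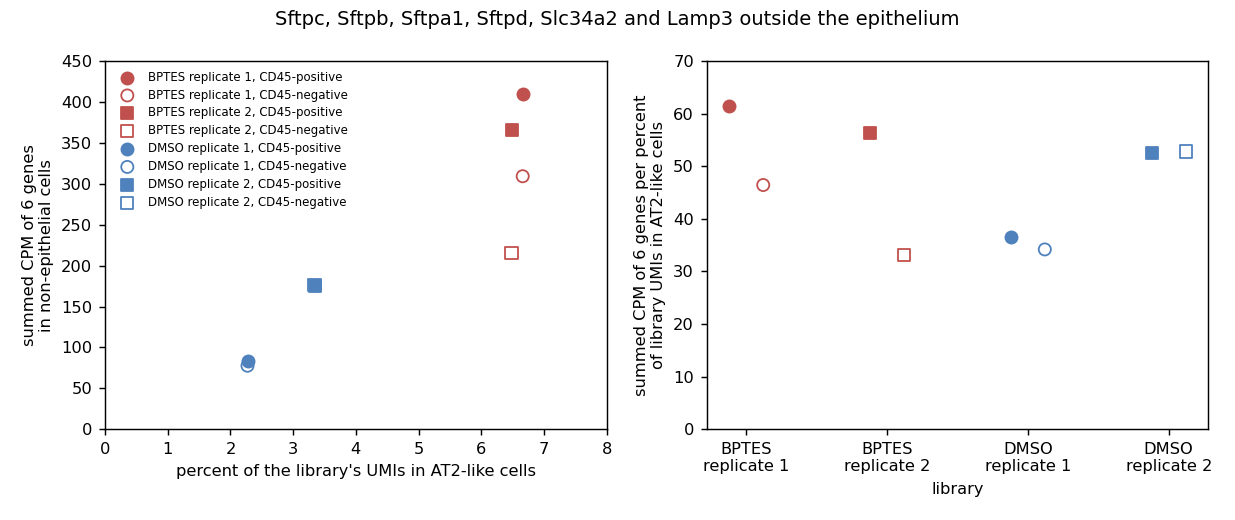
Left, summed CPM of Sftpc, Sftpb, Sftpa1, Sftpd, Slc34a2 and Lamp3 in CD45+ (filled) and CD45- (open) non-epithelial classes against the percent of the library's UMIs in AT2-like cells; right, the same sum divided by that percent, for each library (red BPTES, blue DMSO, circles replicate 1, squares replicate 2). Between the libraries with 2.27% and 6.66%, the sum goes from 77.7 to 309 CPM in the CD45- classes and from 83.1 to 410 CPM in the CD45+ classes, and after division the libraries lie between 33.2 and 61.5; the CD45+ points of the BPTES libraries include the few rich cells that held 30.7% and 41.7% of the UMIs.

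Over the same 18 classes, a single call was made for any of the 10 genes, beside 325 calls in 219389 tests (0.148%). Lyz1 was higher with BPTES in classical monocyte-like cells, with 52.9 and 77.8 CPM against 22.3 and 28.1 CPM (log2 fold change 1.41, SE 0.191, adjusted p = 0.0492), where 42 of 12267 genes were called (0.342%). The 2 cells richest in Lyz1 held 35.1% and 27.2% of its UMIs with BPTES and 53.8% and 69.5% with DMSO, and without them the levels were 34.4 and 56.9 CPM against 10.3 and 8.60 CPM. The call was lost without DMSO replicate 1 (adjusted p = 0.0750), with doublets kept (0.101), at a mitochondrial limit of 5% (0.0751), at resolution 2 (0.0632) and with seed 1 (0.0502), at log2 fold changes of 1.26 to 1.42. Lyz1 stood at 4.59% of its AT2-like level in this class, against 0.0733% for Sftpc. The summed level of 8 type 2 markers in the class was 21.1 and 16.2 CPM with BPTES and 6.58 and 11.5 CPM with DMSO, that of 4 fibroblast markers 54.9 and 60.9 CPM against 40.9 and 42.5 CPM, and that of 4 endothelial markers 72.9 and 62.3 CPM against 47.9 and 57.6 CPM. The 4 airway markers summed to 49.9 and 659 CPM against 16.2 and 51.0 CPM, high in BPTES replicate 2. The 5 myeloid markers (4482 and 4508 CPM against 4582 and 4789) and the 4 AT1 markers (190 and 182 CPM against 222 and 192) were lower in both BPTES libraries. For the 9 lymphocyte markers the groups overlapped. None of these markers was at 0, and their part in the call was not tested.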

How the data were processed

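Single-cell libraries were made with a droplet 3' kit from male C57BL/6 lungs. The authors deposited raw UMI counts per gene and barcode, processed with Cell Ranger 8.0.1 against mm10 per the submitters' processing notes; whether reads were counted by strand is not given in the sources used here. Barcodes under 500 genes or 1000 UMIs, or over 10% mitochondrial UMIs, were dropped. The highest-scoring simulated-doublet neighbours (a Scrublet procedure, 0.4% per 1000 barcodes) were removed. Cells were clustered on 2000 variable genes, 40 principal components and 15 neighbours by the Leiden method (resolution 1, igraph 0.11.9), giving 43 clusters, of which 32 were named from marker lists. A name needed a marker score of 1.5 and at least 3 markers, and the majority of them, found in at least 10% of cells. The majority rule was added after seeing the clusters. A name was also withheld where another class had more markers among the cluster's top 10 genes. The largest unnamed cluster, 7058 cells scored as general capillary endothelial, was left out for that reason. Clusters far below the median depth of their libraries, with none of their own markers among these genes, were left unnamed too. AT1-like and Secretory-like cells came from resolution 2.

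Counts were summed per class and library and tested with edgeR 4.0.16 (TMM, filterByExpr, quasi-likelihood, R 4.3.3) with Benjamini-Hochberg adjustment over all genes, called under 0.05. DESeq2 1.42.0, other filters, clusterings, a replicate term and leaving out each library were alternatives. Scripts were tested on simulated data. Single values had a two-sided exact permutation test. The member genes and gene lists were chosen with earlier results of these data known. Named were all 10 genes, Lyz2, called genes and the 2 most abundant genes of each list, and the most similar profiles among genes of at least 10 CPM. Precision is limited by 2 libraries per group.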

Additional observations from a re-analysis of the deposited data

How the results depend on the processing

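In AT2-like cells 0 of the 10 genes was called, and leaving out 1 library gave 0 to 1 (Lyz1, without DMSO replicate 2). Over all genes there, 13 calls became 129 with DESeq2, 388 with no filter on low counts, 218 with a replicate block, 0 with doublets kept, 7 and 4 at mitochondrial limits of 5% and 20%, and 33 to 322 without 1 library. In non-epithelial cells DESeq2 called 4 of the 10 genes (3.19% of all genes), and leaving out 1 library gave 0 to 5 (0% to 0.716%). In Ciliated-like cells no filter gave 4 calls (1.53% of all genes), DESeq2 1 (0.0916%), doublets kept 5 (0.0553%), and leaving out 1 library 0 to 1 (0.103% to 0.721%). Over the 18 other classes, 1 call (beside 0.148% of all tests) became 69 with no filter (2.57%), 23 with the replicate block (1.28%), 8 with DESeq2 (1.11%), 0 at resolution 2 (0.161%), 0 with seed 1 (0.160%), and 5 to 39 without 1 library (0.347% to 1.97%). Among the 64 other surfactant genes in AT2-like cells, 0 calls became 5 with no filter (1.91% of all genes), 3 with the replicate block (1.67%) and 3 with DESeq2 (0.991%). The difference in the share of UMIs ranged from -0.213 to 0.391 percentage points without 1 library, and that in the summed level of all 10 genes in non-epithelial cells, 174 CPM with all libraries, from 106.8 to 242.0 CPM. In the CD45+ classes the difference in the summed level of the 6 restricted genes fell from 258 to 126 CPM without the 2 cells of each class and library richest in them, a choice made after seeing the data, and from 185 to 132 CPM over all non-epithelial classes. Without 1 library that difference was 212 to 304 CPM in the CD45+ classes, 85.9 to 185 CPM in the CD45- classes and 137 to 233 CPM over all. The cause of these changes was not tested. Without 1 library the log2 fold change reversed and ranged, in non-epithelial cells, from -0.17 to 0.0019 for Abca3, from -0.24 to 0.12 for Napsa and from -0.27 to 0.037 for Lpcat1, and in Ciliated-like cells from -0.0036 to 1.94 for Lyz2. Napsa in Ciliated-like cells reversed with doublets kept (1.01). The labels do not say what libraries with the same replicate number share. Over genes, the difference between replicates 1 and 2 with BPTES correlated with that with DMSO at -0.0057 in AT2-like and -0.146 in non-epithelial cells. With a single such difference per group, these values cannot show whether same-numbered libraries were processed together. A group left with 1 library is assumed to vary like the other. A fit of Secretory-like cells was not run, with 19 cells in a library, nor one of classes without any gene above 5 times the class median, where a library had 0 cells. Leaving out barcodes with UMIs of other cell types was run without Lyz2 on the marker list, a change made after seeing the data, and not with it, since type 2 cells express Lyz2. The Lyz1 level in classes of few cells is limited by depth.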
